A study of Mus musculus with 6 samples.

Results

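Tissue inhibitors of metalloproteinases (TIMPs) and proteases of the ADAM and ADAMTS families were followed in adipose progenitors of mice given rosiglitazone. The 9 genes were Timp1, Timp2, Timp3, Timp4, Adamts1, Adamts2, Adamts4, Adamts5 and Adam12, and every probe that the platform annotation assigns to one of them was taken, with its detection p-value, on all 6 arrays. That gave 13 of the 45281 probes, covering 7 of the 9 genes. No probe was named for Adamts2, which removes the amino-terminal propeptide of fibrillar procollagens, or for Adamts5, an aggrecan-cutting protease, so neither was analysed here.

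The samples were stromal-vascular cells positive for green fluorescent protein (GFP), which the study calls adipose progenitors, sorted from collagenase-digested inguinal, interscapular and gonadal white fat. All mice carried the genotype PPARgamma-tTA;tetO-H2B-GFP, known as AdipoTrak, in which Pparg regulatory sequence drives a transactivator that switches on a GFP-tagged histone, so the gate follows Pparg activity. They were adult, 2 to 6 months old. The untreated group ate plain chow and the other group chow with 0.0075% rosiglitazone, a thiazolidinedione agonist of PPARgamma, for 2 months. Each group had 3 cohorts of 3 to 4 mice and each array held the RNA of 1 cohort, and replicate spread is therefore spread among pools of animals.

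TIMPs are small secreted proteins that bind the active site of matrix metalloproteinases (MMPs). Timp3 is also held in the matrix and inhibits several ADAM and ADAMTS enzymes. ADAMs are mostly membrane-bound proteases that release the outer part of other membrane proteins, and ADAMTS enzymes are secreted proteases that cut proteoglycans or procollagens. In adipose tissue these genes are known for the remodelling of the matrix around growing fat cells and vessels.

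The arrays differed in total intensity, from 9478692 to 14831319 units, and 34.2% to 38.4% of probes were detected at p under 0.05. Levels are given below as deposited intensities before normalization and as background-corrected, quantile-normalized log2 intensities, and levels of different probes are not compared. Of 12 progenitor markers 10 were kept, and their mean was 9.23 to 9.36 log2 units in untreated and 9.33 to 9.48 in rosiglitazone cells. The progenitor marker Ly6a had no named probe and the Cd24a probe was detected on 0 arrays. Macrophage markers were present in both groups and were lower with rosiglitazone, with 12 of 13 tested members past the threshold (limma, adjusted p under 0.05 over all kept probes) and a median log2 change of -2.26. Over all 9760 tested genes 2.27% were past it in that direction.

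Timp1 had the clearest separation between the groups among the 7 genes, and none of the 7 passed the test. Of the 13 probes 11 were detected on at least 3 of the 6 arrays and were tested, and they covered all 7 genes. With each gene represented by its brightest tested probe, limma called 0 of 7 genes at an adjusted p of 0.05, against 2.87% of all 9760 tested genes. At an unadjusted p of 0.05 it called 1 of 7, which was Timp1, against 13% of all genes. The estimated change was negative for 5 genes and positive for 2, beside 44.3% negative among all tested genes. The median log2 change was -0.32 beside 0.04 over all tested genes, and it shrank to -0.11 when rosiglitazone replicate 3 was left out and to -0.18 when untreated replicate 3 was. In the authors' normalized table it was also -0.18. The groups did not overlap, in the direction of lower values with rosiglitazone, for 1 of 7 genes, again Timp1, against 8.53% of all genes. In the other direction this was so for 0 of 7, against 9.96%.

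Timp1 encodes a secreted inhibitor of most MMPs that is readily induced by cytokines and growth factors. Its brighter probe read 7621, 3423 and 3807 intensity units untreated and 1869, 2891 and 1069 with rosiglitazone. Its other probe read 6577, 3199 and 3620 units untreated and 1671, 2492 and 939.3 with rosiglitazone. All 3 untreated intensities lay above all 3 rosiglitazone intensities on both probes, with untreated replicate 1 highest and rosiglitazone replicate 3 lowest.

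After normalization the brighter probe stood at 12.51, 12.24 and 11.55 log2 units untreated and at 11.10, 11.24 and 9.97 with rosiglitazone. The gap between the groups, from 11.55 down to 11.24, was small beside the spread within each group. The means were 12.10 ± 0.50 and 10.77 ± 0.69 (SD, n = 3). The log2 change was -1.33 with a standard error of 0.35, or 2.51-fold lower (limma, adjusted p = 0.096), and its 95% interval ran from -2.10 to -0.56. For the dimmer probe the change was -1.41, or 2.66-fold lower (limma, adjusted p = 0.068). The probes ran in parallel, with the dimmer minus the brighter between -0.22 and -0.09 log2 units on each array, and both read the same extracts. Neither probe passed in the main fit to all 6 arrays. Without untreated replicate 3, the untreated array closest to the treated ones, both did, with log2 changes of -1.60 and -1.67 (limma, adjusted p = 0.046 and 0.038). Leaving out any other single array gave no call. Without untreated replicate 1 the changes were -1.12 and -1.23 (limma, adjusted p = 0.36 and 0.29). Without rosiglitazone replicate 3 they were -0.93 and -1.01 (limma, adjusted p = 0.13 and 0.081). With median scaling instead of quantiles only the dimmer probe passed (log2 change -1.44, limma adjusted p = 0.031). With the replicate number as a block both passed (limma, adjusted p = 0.0038 and 0.0027), but the labels do not say that numbers pair cohorts.

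**Figure D1:**
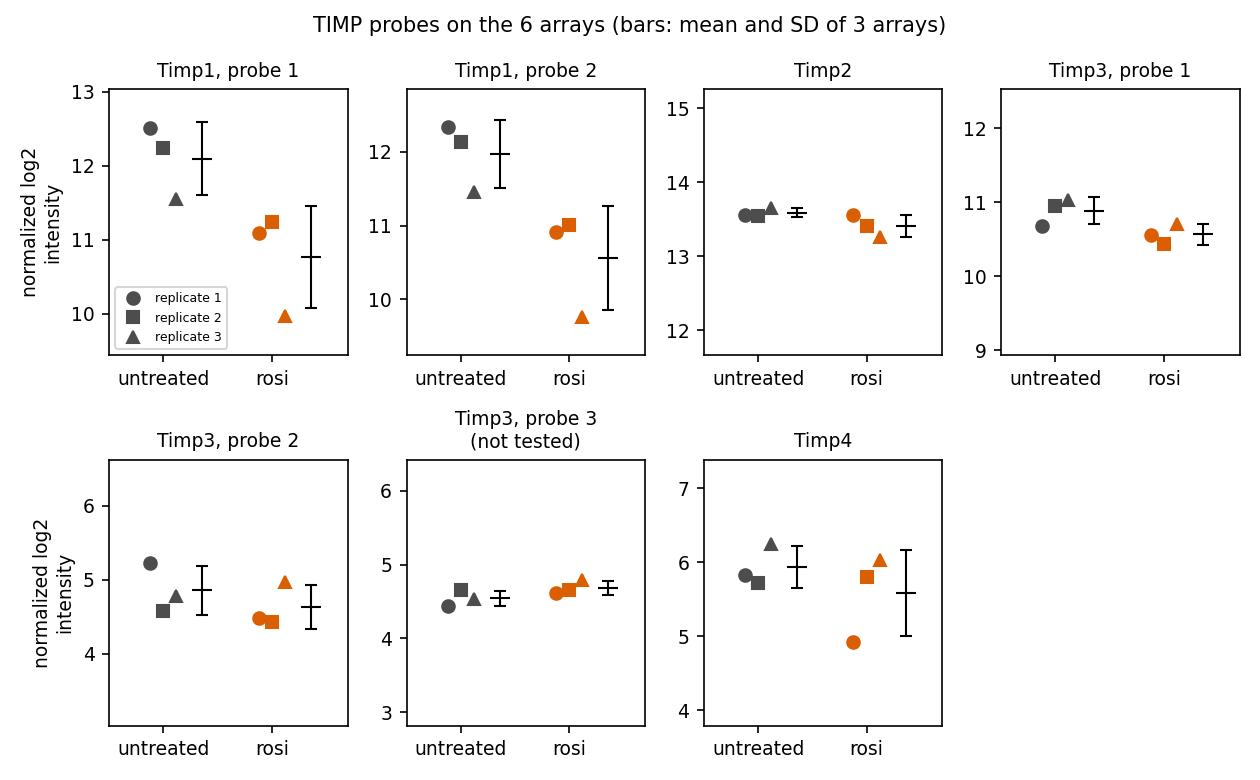
Normalized log2 intensity of the 7 TIMP probes on each array, untreated (grey) and rosiglitazone (orange, "rosi"), with replicates 1 to 3 as circle, square and triangle and black bars for the mean and SD of 3 arrays. Every panel spans the same height. On both Timp1 probes the 3 rosiglitazone arrays lie below the 3 untreated arrays, while the groups overlap for Timp2, Timp4 and all 3 Timp3 probes.

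Macrophage markers were also lower on the rosiglitazone arrays. Their mean over 13 genes was 9.41, 8.91 and 9.35 log2 units untreated and 7.25, 7.39 and 6.36 with rosiglitazone, where replicate 3 was again the lowest. Within the untreated group the order was not that of Timp1, since replicate 3 was lowest for Timp1 and replicate 2 for the markers. Of the macrophage markers, Itgam was detected on 0 arrays and Fcer1g on 2. The part of macrophages in the Timp1 values was not tested, and in such bulk samples fewer cells of a type and less RNA per cell cannot be told apart. Mural cell markers, which belong to pericytes and smooth muscle, had a median log2 change of -0.46. Of the 9 tested, 2 were past the threshold, both lower, beside 2.27% of all genes. The progenitor markers had 0 of 10 past it in either direction, beside 2.87% of all genes, and a median log2 change of 0.15.

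**Figure D2:**
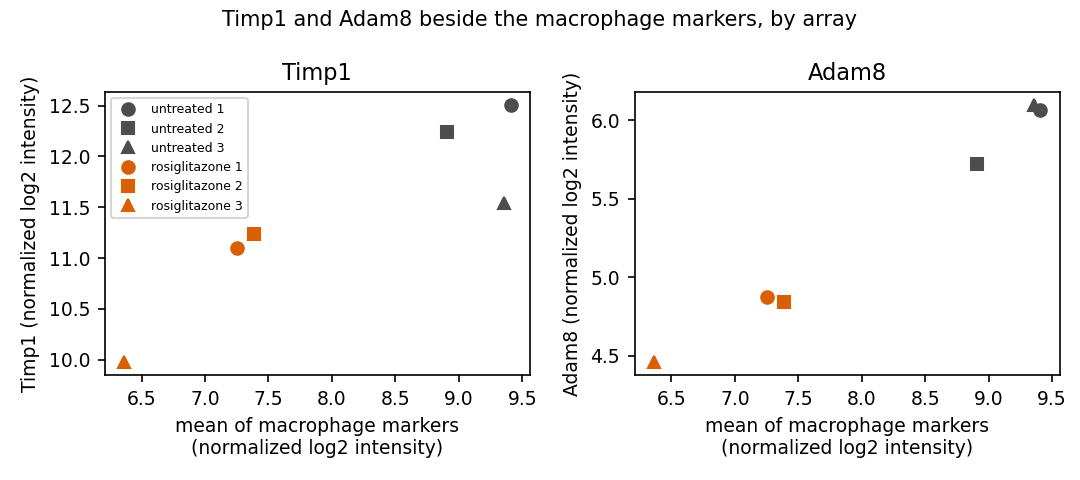
Normalized log2 intensity of Timp1 (left, brighter probe) and Adam8 (right) against the mean of 13 macrophage markers on the same array, 1 point for each of the 6 arrays. Rosiglitazone replicate 3 is lowest on both axes in both panels. The points form separate groups by treatment, so no correlation is given.

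The sequence before the Timp1 gene is shown because this was the member whose groups stood apart. In the RefSeq promoter window of build GRCm38.p6, plus strand, the 250 bases before the annotated start (chrX:20869916-20870165) are printed first, with capitals marking a GC box (GGGCGG on either strand). The second line gives 30 bases just past that start (chrX:20870181-20870210), with capitals marking an AP-1 type match (TGAGTNA on either strand).
Timp1 before the start: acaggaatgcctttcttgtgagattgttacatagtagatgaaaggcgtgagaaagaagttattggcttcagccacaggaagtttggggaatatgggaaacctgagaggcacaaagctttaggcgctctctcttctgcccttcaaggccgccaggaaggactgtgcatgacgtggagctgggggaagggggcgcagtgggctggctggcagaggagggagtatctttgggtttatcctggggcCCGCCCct
Timp1 past the start: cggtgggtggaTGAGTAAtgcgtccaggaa

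Windows of 300 bases, from 250 before to 50 after the start, were searched for Timp1, Timp2, Timp3, Timp4, Adamts1 and Adamts2. The AP-1 type letters occurred in the Timp1 window and in none of the other 5, and 14.7% of all 32851 windows hold them. The nuclear receptor half-site AGGTCA, the repeated unit of PPAR response elements, was in 0 of the 6 windows and in 16.3% of all. GC boxes were in 5 of the 6, with that of Timp4 lacking one, and in 35.7% of all. Such matches describe letters only and are not shown to be bound. Immediate early genes, several of which encode AP-1 subunits or other rapidly induced factors, had 0 of 11 members past the threshold, beside 2.87% of all genes. Their mean was 11.62 to 11.77 log2 units untreated and 11.74 to 11.75 with rosiglitazone. The smallest p-values in that list belonged to Egr2, with a log2 change of 0.44 (limma, adjusted p = 0.33), and Jun, with 0.41 (limma, adjusted p = 0.41).

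Timp2, Timp3 and Timp4 had small estimated changes. Timp2 is an inhibitor that also helps the membrane protease encoded by Mmp14 to activate the gelatinase encoded by Mmp2. It read 15159, 8861 and 15773 intensity units untreated and 9822, 12394 and 9631 with rosiglitazone, an order close to that of total brightness. After normalization its values lay near each other, at 13.55, 13.55 and 13.66 log2 units untreated and 13.55, 13.41 and 13.27 with rosiglitazone. Its log2 change of -0.18 did not pass (limma, adjusted p = 0.75), with a 95% interval from -0.55 to 0.19. Its enzyme partners were as close between the groups, with a log2 change of -0.00013 for Mmp2 (limma, adjusted p = 1.00) and -0.06 for Mmp14 (limma, adjusted p = 0.94).

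Timp3, the matrix-bound TIMP, had 3 probes of which only the brightest was detected on all 6 arrays. This probe stood at 10.68, 10.95 and 11.03 log2 units untreated and at 10.56, 10.43 and 10.71 with rosiglitazone. The groups overlapped only because rosiglitazone replicate 3, at 10.71, exceeded untreated replicate 1, at 10.68. Its change of -0.32 log2 units did not pass (limma, adjusted p = 0.54), with a 95% interval from -0.71 to 0.08. Its second probe was detected on 2 untreated arrays and 1 rosiglitazone array and had a log2 change of -0.23 (limma, adjusted p = 0.77), and the dimmest was detected on 0 untreated arrays and 1 rosiglitazone array and was not tested.

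Timp4, a TIMP of narrower tissue range that is found in fat, was dim, at 146.2, 108.1 and 186.4 intensity units untreated and 96.1, 143.3 and 136.3 with rosiglitazone. It was detected on all 6 arrays, with its weakest detection p of 0.027 on rosiglitazone replicate 1. Normalized values were 5.82, 5.71 and 6.25 log2 units untreated and 4.93, 5.81 and 6.03 with rosiglitazone, so a single low array carried most of the difference. The log2 change was -0.34 (limma, adjusted p = 0.71), and it was -0.01 without rosiglitazone replicate 1.

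The change of Timp1 was set against those of the other TIMPs within each array, which removes the scaling of the array. Timp1 minus Timp2 was -1.05, -1.31 and -2.11 log2 units untreated and -2.45, -2.17 and -3.29 with rosiglitazone. Every rosiglitazone difference was thus more negative than every untreated one, with means of -1.49 ± 0.56 and -2.64 ± 0.58 (SD, n = 3) and a shift of -1.15 (exact permutation test, two-sided, p = 0.10, the smallest that 3 against 3 arrays allow). Against Timp3 and Timp4 the shifts were -1.01 and -0.99, the groups overlapped, and p was 0.30 in both exact permutation tests. Adjusted over these 3 tests p was 0.30 in each, and since 0.10 is the smallest raw p possible these tests could not have passed 0.05 and decide nothing.

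Among the proteases Adamts1, Adamts4 and Adam12, no change passed the test. Adamts1 encodes a secreted protease that cuts the proteoglycans versican and aggrecan. Its brightest probe stood at 8.79, 8.91 and 8.66 log2 units untreated and at 9.03, 8.63 and 7.74 with rosiglitazone. Rosiglitazone replicate 1 was the highest of the 6 arrays and rosiglitazone replicate 3 the lowest. The log2 change was -0.32 (limma, adjusted p = 0.74), with a 95% interval from -0.96 to 0.32, and it was 0.04 without rosiglitazone replicate 3. On that array the macrophage marker mean was the lowest of the 6 and the endothelial marker mean, 8.33 against 7.35 to 8.18 on the others, the highest, and their part in the Adamts1 value was not tested.

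Both other Adamts1 probes were dim, between 104.8 and 186.3 intensity units, and were detected on all 6 arrays. One had a log2 change of -0.22 with overlapping groups (limma, adjusted p = 0.79). The other stood at 5.64, 5.63 and 6.25 log2 units untreated and at 5.57, 4.98 and 5.55 with rosiglitazone. Its groups did not overlap, although the lowest untreated and highest rosiglitazone values were 5.63 and 5.57, and its change of -0.47 did not pass (limma, adjusted p = 0.49). The 3 probes did not rank the arrays alike, since rosiglitazone replicate 1 was highest on the brightest probe and on neither of the others.

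Adamts4 encodes an aggrecan- and versican-cutting protease named aggrecanase. It read 1250, 560.8 and 848.8 intensity units untreated and 834.8, 1140 and 668.6 with rosiglitazone. Normalized values were 9.85, 9.51 and 9.21 log2 units untreated and 9.91, 9.87 and 9.19 with rosiglitazone, with replicate 3 the lowest in both groups. Adamts4 had a log2 change of 0.13 (limma, adjusted p = 0.89), which was -0.02 without untreated replicate 3. Its 95% interval from -0.41 to 0.67 holds changes of up to 1.59-fold higher and 1.33-fold lower.

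Adam12 encodes a membrane and secreted ADAM that is used as a marker of profibrotic stromal progenitors. Its brighter probe stood at 7.63, 7.60 and 6.85 log2 units untreated and at 7.63, 7.29 and 7.55 with rosiglitazone, so that untreated replicate 3 was the low array. The log2 change was 0.13 (limma, adjusted p = 0.89), with a 95% interval from -0.39 to 0.64, and it was -0.13 without untreated replicate 3. The other Adam12 probe, designed on a different transcript record, was detected on 1 untreated array and 0 rosiglitazone arrays and was not tested.

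**Figure D3:**
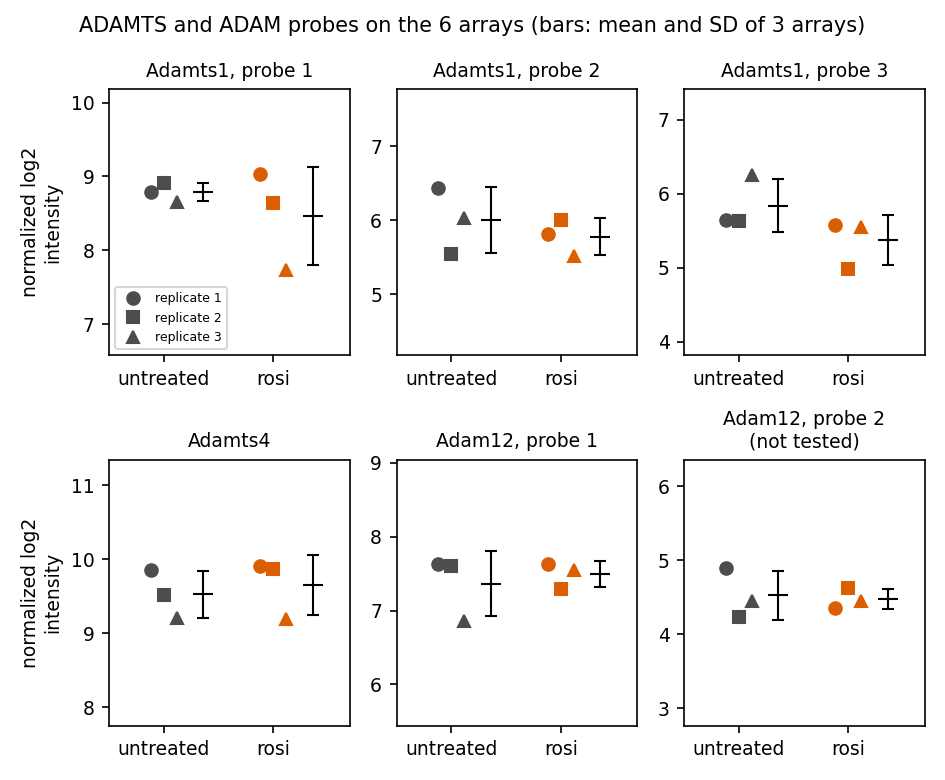
Normalized log2 intensity of the 6 ADAMTS and ADAM probes on each array, untreated (grey) and rosiglitazone (orange, "rosi"), with replicates 1 to 3 as circle, square and triangle and black bars for the mean and SD of 3 arrays. The groups overlap on every probe except Adamts1 probe 3, where the nearest values are 5.63 and 5.57.

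**Figure D4:**
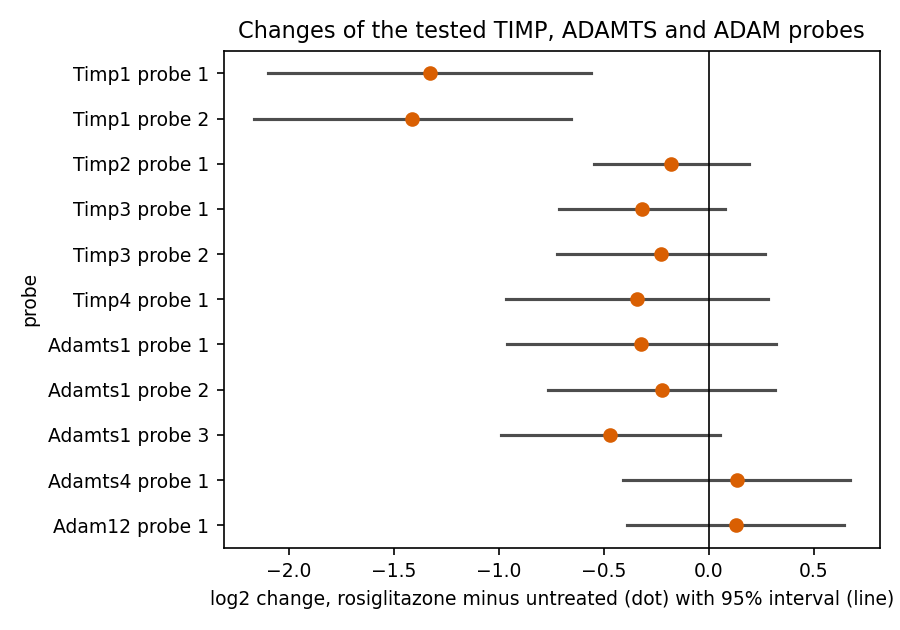
Log2 change, rosiglitazone minus untreated, of the 11 tested probes (dots) with 95% intervals from limma (lines). Only the intervals of the 2 Timp1 probes, which are not adjusted for the number of probes tested, lie wholly below 0.

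Relatives of the 9 genes were examined as lists. Of 7 tested other ADAMs, 1 fell, 0 rose and 6 did not pass, with a median log2 change of -0.21, beside a background of 2.27% of all genes lower and 0.594% higher. The one that fell was Adam8, a protease of leukocytes and osteoclasts. It stood at 6.06, 5.72 and 6.10 log2 units untreated and at 4.87, 4.84 and 4.46 with rosiglitazone, with no overlap. The change was 2.35-fold lower (limma, adjusted p = 0.0066), and its other tested probe had a log2 change of -1.55 (limma, adjusted p = 0.00081). The brighter probe was detected on 2 of 3 rosiglitazone arrays, so the fold is partly set against background, and without background correction its log2 change was -0.40 (limma, adjusted p = 0.053). On the same arrays 12 of 13 macrophage markers fell, and their part in the Adam8 values was not tested.

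Among 9 tested other ADAMTS genes 0 passed in either direction, beside 2.87% of all genes, and the median log2 change was 0.0046. The smallest p-values were those of Adamts19 and of Adamts9, a protease of versican, with log2 changes of 1.36 and 0.42 (limma, adjusted p = 0.26 and 0.62). The Adamts19 change was 0.80 without rosiglitazone replicate 1 and passed without rosiglitazone replicate 3, at 2.03 (limma, adjusted p = 0.0014). That of Adamts9 ran from 0.10 without untreated replicate 1 to 0.72 without untreated replicate 2. The list of ADAMTS-like proteins and papilin, which lack a protease domain, had 5 tested genes. Of these 1 fell, 0 rose and 4 did not pass, beside 2.27% of all genes lower and 0.594% higher. Adamtsl3, a matrix protein gene, stood at 6.83, 6.85 and 6.49 log2 units untreated and at 5.56, 5.51 and 5.14 with rosiglitazone, with no overlap. It was 2.50-fold lower (limma, adjusted p = 0.0044), kept its call without any single array, and had a log2 change of -0.56 without background correction (limma, adjusted p = 0.018). The size of the Adamtsl3 change thus depends on the background correction. Macrophage markers fell there too and 2 of 9 mural markers did, and their part in the Adamtsl3 values was not tested.

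The list of MMPs and Reck, an anchored MMP inhibitor, had 13 tested genes and a median log2 change of -0.0033. Of these 3 fell, 1 rose and 9 did not pass, beside 2.27% of all genes lower and 0.594% higher. Those that fell were Mmp9, Mmp12 and Mmp13, with log2 changes of -1.63, -3.45 and -2.22 (limma, adjusted p = 0.0053, 0.0011 and 0.00031), and -0.63, -2.12 and -0.86 without background correction. Mmp13 was detected on 1 of 3 rosiglitazone arrays, where it stood at 4.55, 4.81 and 4.60 log2 units and the lowest detected signals at 4.76, 4.69 and 4.68, so the size of its change is set against background. Mmp9 was detected on all 3 but stood near those signals, at 4.87, 5.14 and 4.78. Mmp12 was also detected on all 3, at 5.16, 6.69 and 5.02, and was low on replicates 1 and 3. The sizes of both changes are partly set against background too. The part of macrophages in these falls was not tested. Without a detection filter the calls of Mmp9 and Mmp12 were lost (limma, adjusted p = 0.076 and 0.061). The one that rose was Mmp17, which encodes a membrane-anchored MMP. It stood at 7.10, 7.06 and 6.94 log2 units untreated and at 8.33, 7.90 and 7.84 with rosiglitazone. It was 1.99-fold higher (limma, adjusted p = 0.019), a call that was lost without any one array other than rosiglitazone replicate 3 (limma, adjusted p = 0.053 to 0.080), with median scaling (limma, adjusted p = 0.19) and without a filter (limma, adjusted p = 0.069).

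The next list joins hyaluronan-binding proteoglycans cut by ADAMTS enzymes with hyaluronan synthases, the receptor Cd44 and ADAMTS partners, and its 7 tested genes were Vcan, Has1, Has2, Cd44, Fbln1, Sdc4 and Lrp1. By their brightest probes 0 of 7 passed, beside 2.87% of all genes, and 6 of 7 changes were negative, beside 44.3% of all genes. The median log2 change of -0.59 was that of Has1. It stood at 11.16, 11.01 and 10.85 log2 units untreated and at 11.33, 11.32 and 8.62 with rosiglitazone. Only rosiglitazone replicate 3 lay below the untreated Has1 values, and Has2 was also lowest on that array, at 6.59. The smallest p-values were those of the hyaluronan receptor Cd44 and of versican, Vcan, with log2 changes of -1.03 and -0.65 by their brightest probes (limma, adjusted p = 0.069 and 0.32). The Vcan change was -0.37 without rosiglitazone replicate 3. One other Cd44 probe passed, with -1.37 (limma, adjusted p = 0.0082), and the remaining one did not, with -0.52 (limma, adjusted p = 0.53). The other Vcan probes had changes of 0.21 and 0.09 that did not pass (limma, adjusted p = 0.76 and 0.93), so the probes of Vcan differ in sign. Cd44 is also abundant on leukocytes, and the part of macrophages in its values was not tested. Aggrecan, Acan, was detected on at most 1 array by either of its 2 probes. Of 7 tested fibrillar procollagens and processing helpers, the substrates and partners of Adamts2, 0 passed, beside 2.87% of all genes. Their median log2 change was 0.05. Col1a2 and Col1a1, the chains of type I collagen, had log2 changes of 0.53 and 0.33 (limma, adjusted p = 0.31 and 0.65). The Col1a2 change was 0.35 without untreated replicate 3, and that of Col1a1 was 0.07 without rosiglitazone replicate 3.

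**Figure D5:**
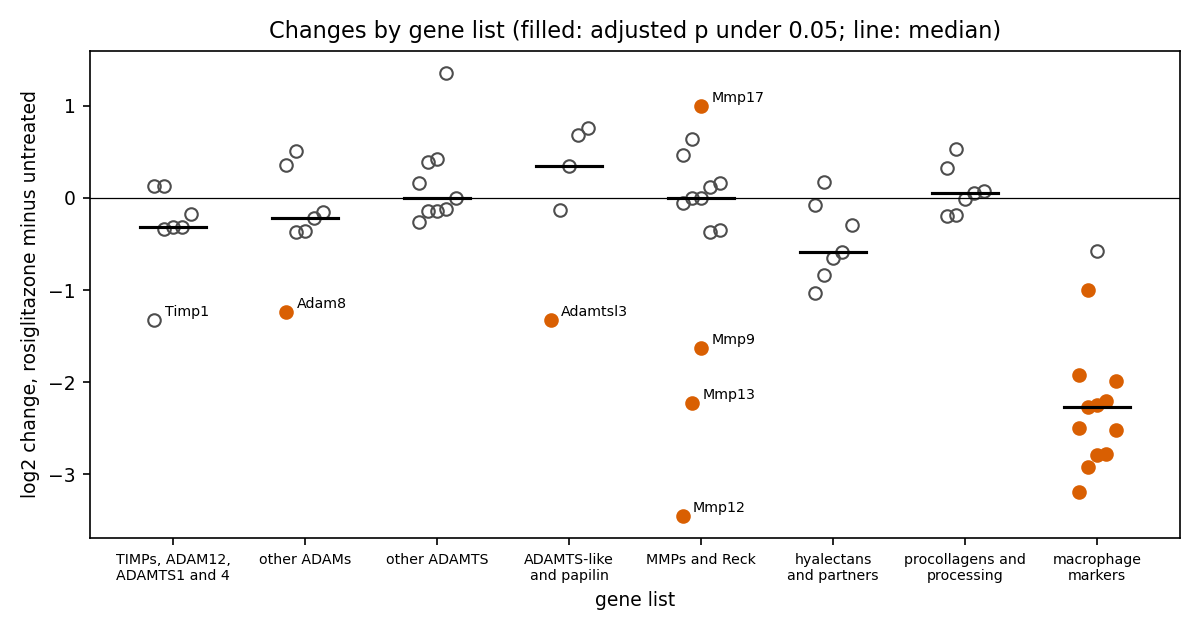
Log2 change, rosiglitazone minus untreated, of each tested gene by its brightest probe, in the list of Timp, Adamts and Adam12 members and in 7 related or marker lists. Filled points passed an adjusted p of 0.05 and black lines are list medians. No member passed, while 12 of 13 macrophage markers and 4 of 13 genes of the MMP list did, beside 2.87% of all tested genes.

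The genes most like Timp1 over the 6 arrays were found by Pearson correlation with its brighter probe among 9508 named genes. They were Oasl1, an interferon-inducible gene (r = 0.990), the Polycomb subunit gene Pcgf5 (0.987), the phosphoinositide kinase gene Pip4k2a (0.987), the orphan receptor gene Gprc5a (0.986) and Rbbp6, a ubiquitin ligase gene (0.985). None of these 5 passed the comparison between groups, with limma adjusted p from 0.16 to 0.47. All 5 were nonetheless lower with rosiglitazone without overlap, as Timp1 was, beside 8.53% of all genes. They were picked for likeness to Timp1, so each r includes the difference between the groups. Oasl1 stood at 7.40, 7.37 and 6.49 log2 units untreated and at 6.32, 6.39 and 5.43 with rosiglitazone, so untreated replicate 3 and rosiglitazone replicate 3 were low within their groups, as for Timp1. Each correlation rests on 6 points and describes these arrays only.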

How the data were processed

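Per the labels, biotin-labelled cRNA was made from total RNA of GFP-positive stromal-vascular cells for Illumina arrays. The authors deposited a non-normalized table of linear intensity with a detection p-value for every probe on each of 6 arrays, and a normalized intensity table. The method of the latter is not given in the sources used here. The deposited series table equals it, with a median of 95.5 in each column. All 6 columns were matched to samples by name.

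From the non-normalized intensities, normexp background correction used the detection p-values and an offset of 16, and log2 values were then quantile-normalized (R 4.3.3, limma 3.58.1). Probes with detection p under 0.05 on at least 3 arrays were kept, 16442 in all. Groups were compared by lmFit and eBayes without covariates, with Benjamini-Hochberg adjustment over kept probes. Fold changes of dim probes are understated by the offset. Of the probes 34885 had 1 symbol in the platform annotation, 18 several and 10378 none here; a gene was its brightest kept probe. Named genes were all members, genes past the threshold or the 2 smallest p-values in each related list, and the 5 genes most like the member with the smallest p.

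On simulated data for this comparison with 16442 probes, 200 of them changed, the fit recovered 0% of 1.5-fold, 37.3% of 2-fold and 98.4% of 4-fold changes. The simulated noise was normal and independent between probes and arrays, with variances drawn from the fitted prior. These shares are therefore averages and do not give the recovery for a particular gene such as Timp1. The number of arrays limits the precision. The limma p-values set the difference between group means against the spread between cohorts, with variances moderated over all kept probes. Members and lists were chosen with earlier results of these data known. Alternatives covered background, normalization, source table, filter, variance, weights, replicate block, probe averaging and each array left out.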

Additional observations from a re-analysis of the deposited data

How the results depend on the processing

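The count of 392 probes past the threshold was 260 with median scaling, 157 without a detection filter and 216 to 435 when each array was left out. It was 445 with a trended robust variance, 475 with the replicate number as a block and 556 with array weights, at the same threshold. The count of member genes past it, 0 of 7, became 1 with the replicate number as a block (replicate block), and was 0 to 1 when each array was left out, the 1 arising without untreated replicate 3; in both cases the gene was Timp1. With the block its adjusted p in limma was 0.0038 and 0.0027 for its 2 probes. The labels do not say that numbers pair cohorts, and deviations of same-numbered arrays correlated at 0.05, -0.01 and 0.35. These values do not settle whether the cohorts were paired, so the block is given as an alternative only. The change of the brighter Timp1 probe stayed negative in all 16 alternatives, from -1.60 to -0.93, with limma adjusted p from 0.0038 to 0.40, and passed in 2. That of the dimmer Timp1 probe was negative in all 15 alternatives run, from -1.67 to -1.01, and passed in 3. Its limma adjusted p ran from 0.0027 to 0.35. Leaving out each array gave -0.60 to 0.045 for Adamts1, turned without rosiglitazone replicate 3, and -0.024 to 0.37 for Adamts4 and -0.13 to 0.26 for Adam12, both turned without untreated replicate 3; other members kept their sign in all alternatives run. Signal near background limits Timp4, the dim Adamts1, Timp3 and Adam12 probes, Adam8, Adamtsl3, Mmp9, Mmp12 and Mmp13. The cause of the other shifts was not tested. The settings for genes other than the members were chosen after seeing the data.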

Other observations

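Adamts19, a secreted protease of little-known substrates, was high on 2 of 3 rosiglitazone arrays. It stood at 6.94, 7.12 and 6.996 log2 units untreated and at 9.49, 8.60 and 7.03 with rosiglitazone, where replicate 3 lay within the untreated range. Its log2 change of 1.36 did not pass (limma, adjusted p = 0.26), was 0.80 without rosiglitazone replicate 1, and passed without rosiglitazone replicate 3, at 2.03 (limma, adjusted p = 0.0014). The mean of 4 mesothelial markers was 5.34, 5.09 and 5.27 untreated and 6.15, 5.86 and 5.14 on the rosiglitazone arrays, high on the same 2 arrays. Of these Upk3b stood at 6.07, 5.55 and 6.56 untreated and at 7.88, 7.73 and 6.21 with rosiglitazone. Krt8, Krt18 and Krt19 were dim and each undetected on some arrays, and Krt19 on rosiglitazone replicate 2, at 5.18, lay within its untreated range. Msln was detected on 0 arrays. The part of mesothelial cells in the Adamts19 values was not tested. This pattern was noticed in the data.

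Papilin, Papln, a matrix protein related to ADAMTS enzymes, was higher on all 3 rosiglitazone arrays, at 6.99, 6.99 and 6.88 log2 units against 5.88, 6.37 and 6.34 untreated. Its log2 change of 0.76 did not pass (limma, adjusted p = 0.073), and it passed with array weights alone (limma, adjusted p = 0.027). Papln was chosen after its values were seen.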
